A study of Gallus gallus with 26 samples.

Results

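In the RNA-seq table, 10 rows carried the symbols of the W-linked genes HNRNPKL, LOC769000, LOC427025, LOC374195, LOC431003, LOC107049174, ATP5F1AW, LOC425347, LOC426615 and LOC100859602. These 10 genes, out of 15984 in the table, were chosen by symbol because earlier results of these data had shown their transcripts in 4 of the 6 libraries and almost none in the other 2. All 10 were placed on chromosome W as protein-coding genes by the RefSeq annotation of the chicken assembly GRCg7b. That annotation lists 170 genes on W, of which 109 are protein coding, and 20 rows of the table could be matched to it. RNA was measured in 3 libraries of the joint interzone and 3 of the adjacent phalange, each from digit 3 of the hindlimb of White Leghorn chick embryos that had been incubated for 7.5 days to stage HH32. Interzone cells form the band where a joint will arise, and the phalange next to it is cartilage. No group carried a treatment or an altered allele, and neither the sex of the embryos nor the number of embryos in an RNA library is given in the sources used here. H3K27ac, a histone mark of active promoters and enhancers, was profiled with 3 ChIP-seq libraries per tissue, and H3K4me1, a mark of enhancers, with 2 per tissue, each from a pool of 100 dissected pieces.

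In birds, females carry one Z and one W chromosome and males carry a pair of Z chromosomes, so W-linked transcripts are made only by female cells. Most genes left on the avian W are copies of genes on Z that date from when both chromosomes were an ordinary pair. The Z and W copies of CHD1 are widely used to tell the sex of bird samples. Genes on Z are not silenced on one chromosome as a whole in male birds, and many are made at higher levels in males than in females.

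Between 12431285 and 14347148 reads per library were assigned to genes, and all values of the table could be turned back into whole reads within 0.01 of a read. The tissue labels were checked against marker genes. Those of the interzone were GDF5, ENPP2, ERG and COL3A1, and those of cartilage COL2A1, MATN1, SNAI1, RUNX2, ACAN and HAPLN1. The summed normalized counts (reads scaled by the size factor of their library) of 4 interzone markers were 42124, 99109 and 19535 in interzone 1, 2 and 3 and 8220, 5280 and 7715 in phalange 1, 2 and 3. Those of 6 cartilage markers were 6622, 10173 and 5481 in interzone and 25216, 45523 and 42218 in phalange. Among these, ACAN overlapped between the tissues, with 4707 in interzone 2 and 3886 in phalange 1. The summed counts of the 6 blood genes found, of 11 listed, were 33483, 1483 and 51058 in interzone and 39279, 694 and 8201 in phalange. The blood genes did not follow the tissue. Sums for 6 skeletal muscle genes were 2979, 1210 and 1733 in interzone and 1230, 559 and 500 in phalange. Sums for 4 epidermis genes were 929, 1373 and 1002 in interzone and 851, 630 and 545 in phalange. The part of blood, muscle and epidermis in the values of the W-linked genes was not tested. Reads are copies of amplified cDNA, so intervals and limits below cover counting error only.

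The W-linked genes had 30 reads in total in interzone 1 and 28 in phalange 1. They had 7412 and 7084 reads in interzone 2 and 3, and 7886 and 6809 in phalange 2 and 3. The 2 libraries with almost no W reads thus came from both tissues and shared the replicate number 1. This is the pattern the genes were chosen for, so it is given with no test.

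HNRNPKL, the W copy of HNRNPK, which encodes an RNA-binding protein of the nucleus, gave most of these reads. Its normalized counts were 21.4, 5550 and 4513 in interzone 1, 2 and 3 and 28.0, 5932 and 4295 in phalange 1, 2 and 3. It held 72.5%, 67.7%, 71.7% and 65.9% of the reads of the 10 genes in interzone 2 and 3 and phalange 2 and 3. It was also the member with the most reads in the libraries numbered 1, with 24 in interzone 1 and 28 in phalange 1. These shares are of reads and are not corrected for the length of the transcripts.

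LOC374195, listed in RefSeq under the older symbol CHD1W, is the W copy of the gene for the chromatin remodeler CHD1. Its normalized counts were 2.68, 302 and 355 in interzone and 0, 480 and 508 in phalange. LOC427025, listed under the older symbols NIPBLL and SCC2W, is named after NIPBL, which loads the cohesin ring onto DNA. Its counts were 1.79, 426 and 232 in interzone and 0, 576 and 452 in phalange. In the RefSeq order of genes on W, LOC374195 and LOC427025 were next to each other, with 0 protein-coding genes between them. For both, each of the phalange libraries 2 and 3 lay above each of the interzone libraries 2 and 3. Of all genes tested in these 4 libraries, 16.5% had that order. LOC426615, with 2 protein-coding genes between it and LOC427025, overlapped between the tissues.

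ATP5F1AW is the W copy of the gene for the alpha subunit of the mitochondrial ATP synthase. Its normalized counts were 0, 137 and 187 in interzone and 0, 192 and 229 in phalange, again with the phalange libraries 2 and 3 above the interzone libraries 2 and 3. The remaining 6 genes have only locus numbers in the files and in the annotation used here, so no role is given for them. LOC769000 had 0.894, 553 and 510 in interzone and 0, 592 and 350 in phalange. LOC431003 had 0, 142 and 305 in interzone and 0, 261 and 291 in phalange. LOC107049174 had 0, 236 and 347 in interzone and 0, 111 and 255 in phalange. In these 3 genes the tissues overlapped among the libraries numbered 2 and 3.

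LOC425347 showed the widest spread of the 10 genes, with normalized counts of 0, 163 and 125 in interzone and 0, 73.4 and 12.4 in phalange. It was the only one with both interzone libraries 2 and 3 above both phalange libraries 2 and 3. LOC426615 had 0, 74.3 and 53.6 in interzone and 0, 45.1 and 67.0 in phalange. LOC100859602 had 0, 66.1 and 38.6 in interzone and 0, 8.39 and 58.4 in phalange. Both overlapped between the tissues. Over the 4 libraries numbered 2 and 3, the highest count was 1.38 times the lowest for HNRNPKL, 3.12 times for LOC107049174, 7.88 times for LOC100859602 and 13.1 times for LOC425347. The coefficient of variation over these 4 libraries ranged from 15.6% for HNRNPKL to 69.9% for LOC425347.

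**Figure D1:**
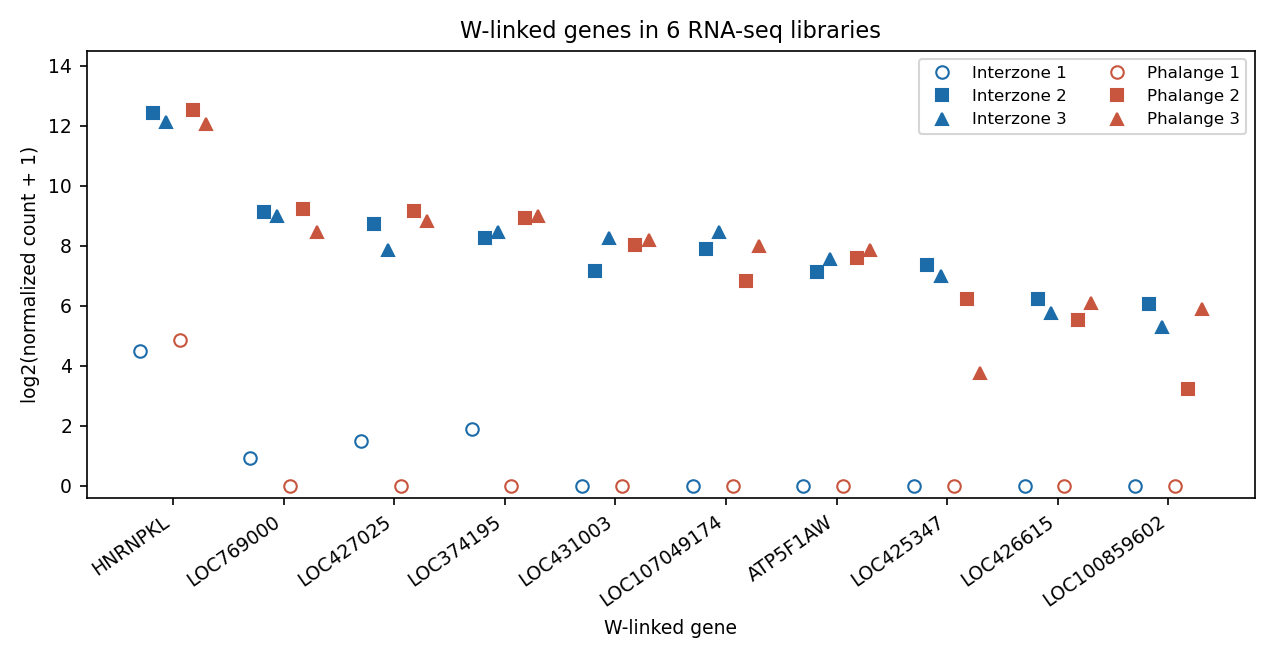
Levels of the 10 W-linked genes as log2(normalized count + 1), with 1 point for each library, colored by tissue and shaped by replicate number. Open circles are the libraries numbered 1, where HNRNPKL had 21.4 and 28.0 normalized counts and the other 9 genes at most 2.68, and filled points are the libraries numbered 2 and 3.

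A tissue comparison over all 6 libraries, given further below, mixes in the near absence of the transcripts in the libraries numbered 1. The main comparison was thus made among interzone 2 and 3 and phalange 2 and 3. Of the 10 genes, 3 (LOC427025, LOC374195 and ATP5F1AW) had both phalange libraries above both interzone libraries, 1 (LOC425347) had the reverse order, and 6 overlapped. Over all 11778 genes tested in these 4 libraries, 32.6% did not overlap, 16.5% with phalange above and 16.2% with interzone above. The count of 4 of 10 is near that background. An exact permutation test of 2 libraries against 2 cannot go below p = 0.333.

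With limma on log2(normalized count + 1), 0 of the 10 genes passed the thresholds of an adjusted p of 0.05 and a log2FC (interzone over phalange) beyond 0.5, and 0 of all 11778 genes tested did, a background of 0%. On the reads of these 4 libraries DESeq2 called 160 genes, 88 with interzone above, and edgeR called 0. At an unadjusted p under 0.05, 5.35% of all genes were selected and 0 of the 10. edgeR and DESeq2 on the recovered reads also called 0 of the 10. The largest difference with all 4 libraries was that of LOC425347, whose log2FC was 2.19 (SE 1.04, limma unadjusted p = 0.0802, adjusted p = 0.932). It was 0.95 without phalange 3 and 3.42 without phalange 2, and without phalange 3 the log2FC of LOC100859602 (2.46) and LOC107049174 (1.36) were larger. The log2FC of LOC427025 was -0.69 (SE 0.46, limma adjusted p = 0.958) and that of LOC374195 was -0.59 (SE 0.38, limma adjusted p = 0.948). HNRNPKL was measured most tightly, with a log2FC of -0.012 (SE 0.27) and a 95% interval from -0.67 to 0.64. For the other 6 genes the log2FC lay between -0.40 for LOC431003 and 1.13 for LOC100859602, with every interval spanning 0. These intervals leave room for differences in either direction, and for LOC100859602 the interval ran from -1.96 to 4.21.

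**Figure D2:**
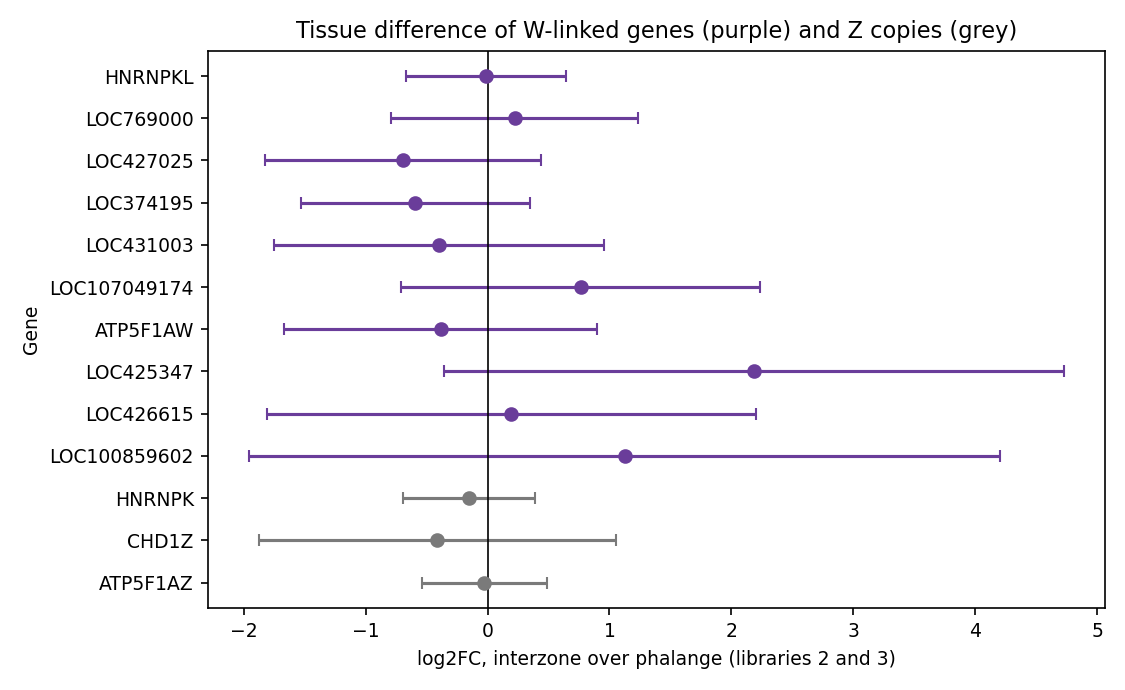
Log2FC of interzone over phalange among the libraries numbered 2 and 3, with 95% intervals from limma, for the 10 W-linked genes (purple) and the Z copies of 3 of them (grey). All 13 intervals cross 0, the narrowest among the W-linked genes being that of HNRNPKL from -0.67 to 0.64.

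In the fit over all 6 libraries, 0 of the 10 genes were called by limma, edgeR or DESeq2. Of all 11928 genes limma called 3, a background of 0.0252%, DESeq2 called 152 and edgeR with TMM called 1. Over 6 libraries, 0 of the 10 genes had tissues that did not overlap, against 11% of all genes, 5.86% with interzone above and 5.11% with phalange above. The 10 genes were chosen for their near absence in the libraries numbered 1, which come from both tissues. Overlap of the tissues and a wide spread within each were thus set by that choice. The 0 of 10 is no result about the tissues. At an unadjusted p under 0.05 the limma fit selected 0 of the 10 genes and 6.46% of all genes. The standard errors of the log2FC rose to between 2.06 and 2.78 for the 10 genes, from between 0.27 and 1.26 in the 4 libraries. The median standard error over all genes tested was 0.51 with 6 libraries and 0.62 with 4. With the replicate number as a block in the fit over all 6 libraries, the standard errors of the 10 genes were between 0.23 and 1.32. In that fit 0 of the 10 genes were called, against 1 of all 11928.

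A gene on Z with a matching symbol could be found in the table for 3 of the 10 genes. They were HNRNPK for HNRNPKL, CHD1Z for LOC374195 and ATP5F1AZ for ATP5F1AW. Reads from stretches that are identical in both copies cannot be placed on one of them, and how many such reads were left out or assigned is not known, so the shares below are of counted reads only.

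HNRNPK on Z had normalized counts of 11024, 5254 and 5701 in interzone 1, 2 and 3 and 10878, 6389 and 5779 in phalange 1, 2 and 3. It was thus highest in the libraries numbered 1, where HNRNPKL was near 0. The sum of both copies was 11046, 10804 and 10214 in interzone and 10906, 12321 and 10075 in phalange. Its highest value was 1.22 times its lowest, against 2.10 times for the Z copy alone. The coefficient of variation over the 6 libraries was 7.34% for the sum and 35.9% for the Z copy.

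The other 2 pairs did not have this near constant sum. CHD1Z had 268, 148 and 340 in interzone and 299, 229 and 389 in phalange, so the libraries numbered 1 lay among the others. The sum of LOC374195 and CHD1Z was 271, 450 and 694 in interzone and 298, 709 and 897 in phalange, lowest in the libraries numbered 1. ATP5F1AZ had 31662, 14636 and 16537 in interzone and 34552, 15052 and 16685 in phalange. It was highest in the libraries numbered 1 as HNRNPK was, but ATP5F1AW added so few reads that the coefficient of variation of the sum over 6 libraries stayed at 41.4%.

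**Figure D3:**
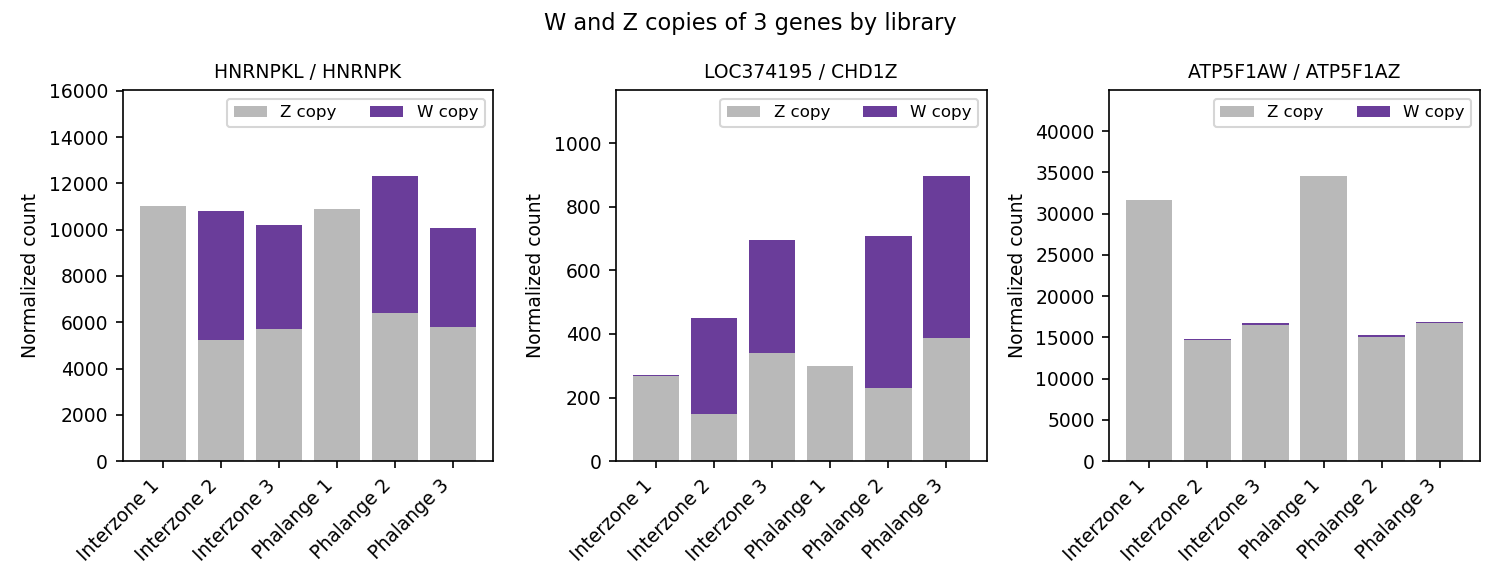
Normalized counts of the Z copy (grey) and the W copy (purple) of 3 genes, stacked, in each of the 6 libraries. The stacked height for HNRNPK lies between 10075 and 12321 in every library, while that for LOC374195 and CHD1Z runs from 271 to 897 and the W copy of ATP5F1A is barely visible.

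In the libraries numbered 2 and 3, the W copy took 42.6% to 51.4% of the reads of the HNRNPK pair. It took 51.1% to 67.8% of those of the CHD1 pair and at most 1.35% of those of the ATP5F1A pair. For HNRNPKL the W share was 51.4% (95% Clopper-Pearson interval 50.4 to 52.3) in interzone 2, 44.2% (43.2 to 45.1) in interzone 3, 48.1% (47.2 to 49.1) in phalange 2 and 42.6% (41.7 to 43.6) in phalange 3. For LOC374195 it was 67.2% (62.6 to 71.6), 51.1% (47.4 to 54.7), 67.8% (64.1 to 71.3) and 56.7% (53.4 to 59.9) in the same order. For ATP5F1AW it was 0.929% (0.779 to 1.10), 1.12% (0.970 to 1.29), 1.26% (1.08 to 1.45) and 1.35% (1.19 to 1.53). In the libraries numbered 1 the share of HNRNPKL was 0.194% (0.124 to 0.289) in interzone and 0.256% (0.170 to 0.370) in phalange, while ATP5F1AW had 0 reads beside 35433 and 34610 of ATP5F1AZ.

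These shares followed the replicate number more than the tissue in 2 of the 3 pairs. The share of HNRNPKL was 7.19 percentage points higher in interzone 2 than in interzone 3 and 5.51 points higher in phalange 2 than in phalange 3. The share of LOC374195 was 16.1 and 11.1 points higher in the same comparisons. In both pairs the counting intervals of libraries 2 and 3 did not overlap within a tissue. For HNRNPKL the intervals of interzone 2 (50.4 to 52.3) and phalange 2 (47.2 to 49.1) did not overlap either. Those of interzone 3 and phalange 3 did, as did those of LOC374195 between the tissues at both numbers. The difference by replicate number was not tested. Between the tissues, the mean share differed by 2.39 points for HNRNPKL (two-sided exact permutation test, p = 0.667), by -3.07 points for LOC374195 (two-sided exact permutation test, p = 0.667) and by -0.28 points for ATP5F1AW (two-sided exact permutation test, p = 0.333, the lowest value possible). Adjusted over the 3 pairs, p was 0.667 for each (exact permutation tests, Benjamini-Hochberg). Over the reads of all 3 pairs together the W share was 20.7% in both tissues, with a difference of -0.049 points (two-sided exact permutation test, p = 1).

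**Figure D4:**
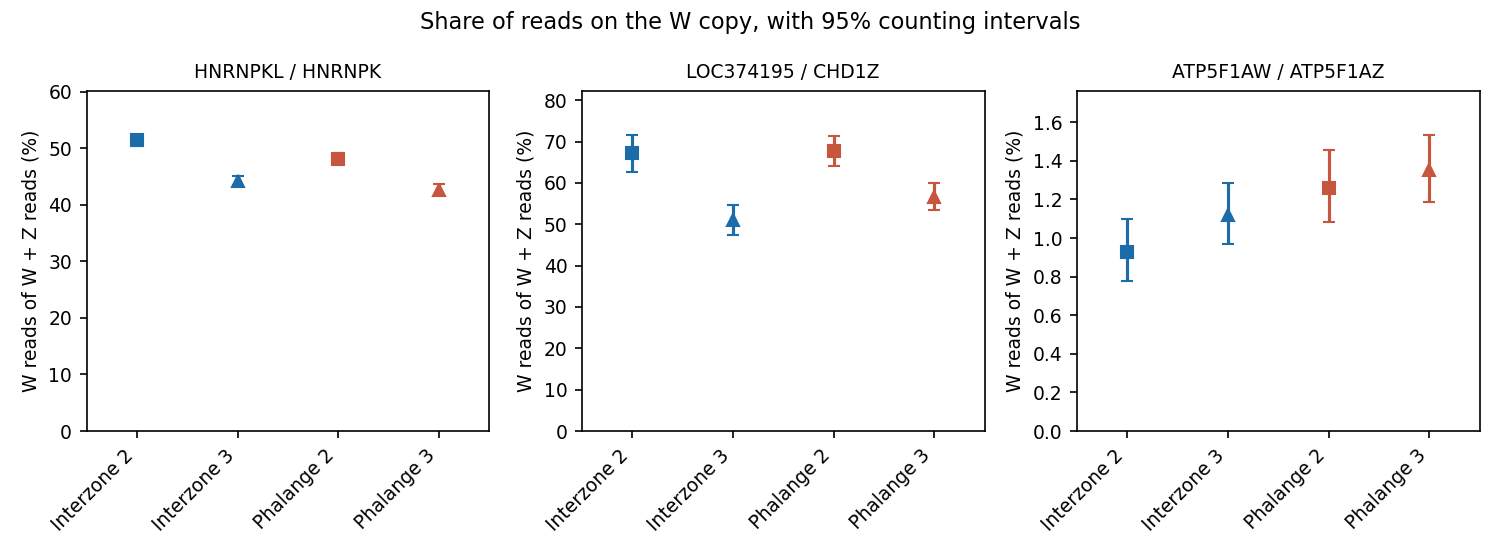
Share of the reads of each W and Z pair that fell on the W copy in the 4 libraries numbered 2 and 3, in percent, with 95% Clopper-Pearson intervals (blue interzone, red phalange; squares 2, triangles 3). In the HNRNPK and CHD1 pairs both squares lie above both triangles, at 51.4% and 48.1% against 44.2% and 42.6% for HNRNPKL.

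The Z copies showed no tissue difference that passed the test. Among the libraries numbered 2 and 3, the log2FC was -0.15 (SE 0.22) for HNRNPK, -0.41 (SE 0.60) for CHD1Z and -0.027 (SE 0.21) for ATP5F1AZ. Limma called 0 of the 3 and 0 of all 11778 genes, so this count says nothing particular to the Z copies. HNRNPK had both phalange libraries above both interzone libraries, as 16.5% of all genes did, while CHD1Z and ATP5F1AZ overlapped.

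The rest of chromosome Z was read in the same libraries. For the 468 genes placed on Z whose mean was at least 10 normalized counts, the median log2 difference between a library and the gene's mean over the 6 libraries was 0.53 in interzone 1 and 0.37 in phalange 1. It was -0.19 and -0.22 in interzone 2 and 3 and -0.15 and -0.088 in phalange 2 and 3. In interzone 1, 86.1% of these genes lay above their own mean, and in phalange 1 73.1% did, against 34.8% to 42.5% in the other 4 libraries. For the 9439 genes placed on numbered autosomes the same median lay between 0.0051 and 0.078 in all 6 libraries. All rows placed on Z, including those below that mean, took 4.06% and 4.02% of all reads in the libraries numbered 1. They took 2.57% to 2.75% in the other 4. The libraries with almost no W reads were thus those with the highest levels of Z genes, in both tissues.

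Of the 10 other rows placed on W, LOC100858742 had the highest counts with the pattern of the 10 genes. Its normalized counts were 0, 17.6 and 4.71 in interzone and 0, 76.6 and 23.9 in phalange. Both phalange libraries 2 and 3 thus lay above both interzone libraries 2 and 3, as in 16.5% of all genes. Its log2FC among these libraries was -2.10, which limma did not call, as it called 0 of all 11778 genes there. LOC427010 had 4 reads in interzone 1 and 1 in phalange 1, against 13 to 27 in the other 4 libraries, and LOC107049046 had 1 read in each library numbered 1, against 15 to 23. The symbol NEDD4L stood on 2 rows, and the annotation also uses it outside W. The first had 0 and 1 reads in the libraries numbered 1 and 16 to 30 in the others, while the second had 139 to 373 reads in all 6.

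A total of 52 rows had at most 3 reads in both libraries numbered 1 and at least 5 in each of the other 4. They were 9 of the 10 genes (all but HNRNPKL, which had 24 and 28 reads), 5 other rows on W, 28 rows without a symbol and 10 with another symbol. The 10 genes were chosen for this pattern, so their count is no result. The reverse pattern asked for at least 5 reads in both libraries numbered 1 and at most 3 in each of the other 4. It was held by 106 rows, of which 0 were matched to W by symbol and 21 had no symbol to match. The reverse needed reads in fewer libraries, so the counts of 52 and 106 are not alike. Of all 15984 rows, 3958 had no symbol. The genes most similar to the mean of the 10 over the 6 libraries, by Pearson correlation of log2 values among 11918 genes, were the first 5 in rank, all rows without a symbol. The leading 2, ENSGALG00000043838 and ENSGALG00000038876, had a correlation of 0.999 each, with 0 reads in both libraries numbered 1 and 59 to 101 in the others. Such correlations are set by the 2 libraries near 0 and are given as a description.

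Genes of sex differentiation in birds had low counts. Of 10 listed genes, 7 were in the table and 2, RSPO1 and WNT4, both secreted signals of the WNT pathway, reached a mean normalized count of 10 over the 6 libraries. The summed counts of the 7 were 329, 200 and 78.1 in interzone and 207, 0 and 95.7 in phalange. RSPO1 had its most reads in interzone 1 and WNT4 in interzone 2. NR5A1, ESR1, FOXL2, AMH and HEMGN had at most 28 reads in any library. Most of the reads of each lay in interzone 1 or phalange 1, which was not tested. These are few reads, and those of FOXL2 (3) and NR5A1 (8) were all in phalange 1. Over the whole table, reads fell on 14418 genes in interzone 1, 13214 in phalange 1 and 12615 to 13568 in the other libraries. Among the libraries numbered 2 and 3, limma called neither RSPO1 nor WNT4 between the tissues, and 0 of all 11778 genes.

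Peaks on chromosome W were present in every ChIP-seq library, in coordinates of the build Gallus gallus 6.0. For H3K27ac there were 63, 52 and 54 W peaks in interzone 1, 2 and 3 and 63, 43 and 51 in phalange 1, 2 and 3. They made up 0.0897%, 0.0543% and 0.0718% of the length covered by peaks in interzone and 0.0855%, 0.0465% and 0.0646% in phalange. No ChIP-seq library lacked W peaks, unlike the RNA libraries numbered 1, and replicate numbers are not known to link the RNA and ChIP-seq samples. The means of 0.0720% ± 0.0177 (SD, n = 3) and 0.0655% ± 0.0195 (SD, n = 3) differed by less than the spread between libraries (two-sided exact permutation test, p = 0.7). Interzone lay above phalange within each of the 3 replicate numbers, and the difference taken within numbers had p = 0.25 (two-sided exact permutation test), the lowest that 3 pairs allow. The numbers are not known to pair the ChIP-seq libraries. For H3K4me1 the shares were 0.0103% and 0.0106% in interzone and 0.0199% and 0.0117% in phalange, from 18 and 17 against 45 and 21 peaks (two-sided exact permutation test, p = 0.333, the lowest value possible). Sequencing depth of the ChIP-seq libraries is not known, so its part in these counts was not tested. The sex of the embryos in each pool is not known either. Its part in the W shares and in the contrast with the RNA libraries was not tested.

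The H3K27ac peaks on W merged into 84 regions. Of these, 28 were found in all 6 libraries, 36 in 2 to 5 and 20 in 1 library. In all interzone and no phalange libraries there was 1 region, W:5119369-5120307, at 2.23 to 2.35 times the input, and 0 were the reverse. The same shares were not computed for H3K27ac regions of the whole genome, so these counts do not show whether W differs from it. The 28 shared regions were 571 to 5922 bp long, with a median of 1751 bp, and covered 60.2 kb. H3K4me1 peaks overlapped 17 of them in at least 1 of its 4 libraries. The region with the highest lowest enrichment over input lay at W:1871292-1873179, at 4.35 to 6.50 times the input over the 6 libraries, and it overlapped H3K4me1 peaks in all 4 libraries of that mark. The next lay at W:5900105-5902092, at 3.89 to 6.49 times. No annotation of that build was used, so the regions were not assigned to any of the 10 genes.

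**Figure D5:**
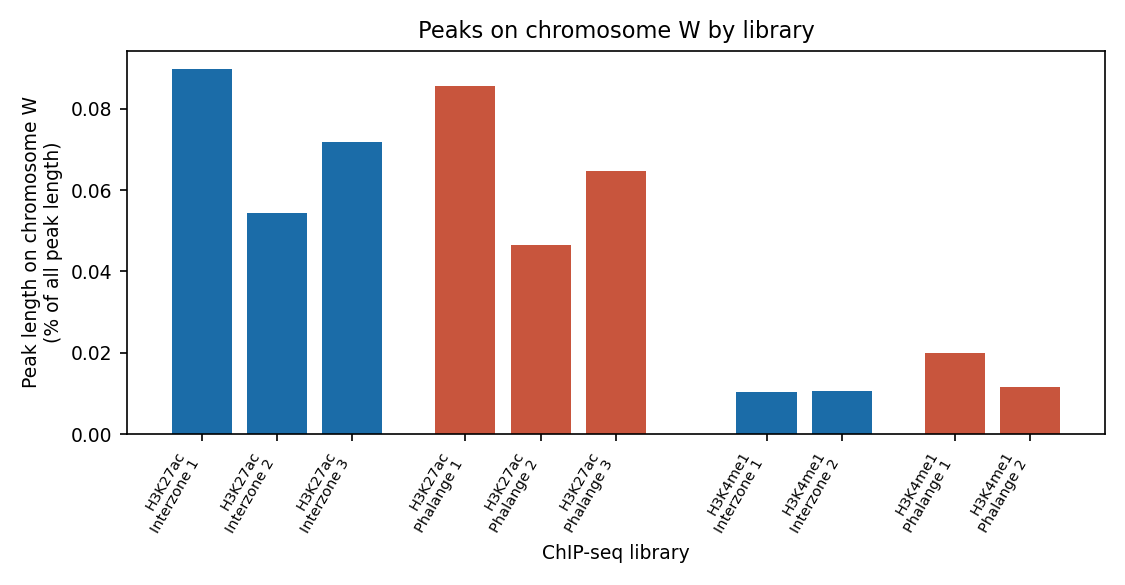
Length of peaks on chromosome W as a percentage of the length of all peaks, with 1 bar for each ChIP-seq library, blue for interzone and red for phalange. H3K27ac lies between 0.0465% and 0.0897% and H3K4me1 between 0.0103% and 0.0199%, and the H3K27ac bars of the 2 tissues overlap.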

How the data were processed

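For RNA-seq, the authors made Smart-seq2 libraries, trimmed reads with Trimmomatic, mapped them with STAR to Gallus gallus 6.0, counted them with featureCounts and deposited counts divided by DESeq2 size factors, a normalized signal. Strand use in counting is not given in the sources used here. Whole reads were recovered from the value of 1 read in each library. ChIP-seq reads were mapped by the authors with Bowtie2, and they deposited MACS2 broad peaks called against input in each library, with a score, a fold enrichment ratio and the −log10 of p and q.

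Values were tested as log2(normalized count + 1) with limma 3.58.1 (R 4.3.3) where the mean was at least 10, with Benjamini-Hochberg adjustment over all genes tested. edgeR 4.0.16 and DESeq2 1.42.0 were alternatives, besides other pseudocounts, filters, scaling, a replicate block and leaving out libraries. Fits were tested on simulated data with large changes in well-counted genes, and a pass was required only of the fits of 6 libraries. Fits of 4 libraries were simulated as well, but their recovery is not reported here. How well they find differences in these data is thus not shown. Shares were compared by exact permutation tests in Python 3.11.15 with scipy 1.17.1. Every member and Z copy was named, as were other W rows with a mean of at least 10. Names came from RefSeq for GRCg7b, another assembly, so none of its coordinates are given, and Z copies were matched by symbol instead of the planned protein comparison. Members, lists and tests were chosen with earlier results of these data known. The labels do not say that replicates came from separate embryos, so p-values measure the spread between libraries.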

Additional observations from a re-analysis of the deposited data

How the results depend on the processing

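The count of 0 called W-linked genes, and of 0 called Z copies, stayed at 0 under every alternative that was run. Over all genes, limma called 0 and 0 genes (higher in interzone and in phalange) in 4 libraries and DESeq2 88 and 72. In 6 libraries limma called 3 genes in all, DESeq2 152 and edgeR with TMM 1. Same-numbered libraries were not shown to be paired. The correlations of their deviations were 0.174, 0.0763 and -0.0223 for numbers 1, 2 and 3. For libraries of unlike number they ran from -0.137 to 0.0685, so number 3 lay within that range and numbers 1 and 2 above it. With the replicate block in the fit of 4 libraries, 0 of the 10 genes were called, against 2 of all 11778. The W share differed by -0.049 points with that block. With all 6 libraries and the replicate block, LOC427025 turned to 0.030 and LOC374195 to 0.23 on the log2 scale. That fit takes in the libraries numbered 1, where both genes were near 0. LOC427025 had 2 reads in interzone 1 and 0 in phalange 1, and LOC374195 had 3 and 0. These 2 values thus rest on a few reads and do not show a reversed tissue difference. The tissue difference of the W share became 2.39 points as the median over pairs and 1.82 points without the ATP5F1A pair. Leaving out 1 library turned the sign of 7 genes, with log2FC ranges of -0.25 to 0.22 (HNRNPKL), -0.15 to 0.60 (LOC769000), -0.95 to 0.14 (LOC431003), -0.084 to 0.48 (LOC426615), -0.21 to 2.46 (LOC100859602), -1.01 to 0.19 (CHD1Z) and -0.11 to 0.061 (ATP5F1AZ). The other genes kept their sign, with -1.13 to -0.26 (LOC427025), -0.71 to -0.48 (LOC374195), 0.17 to 1.36 (LOC107049174), -0.61 to -0.16 (ATP5F1AW), 0.95 to 3.42 (LOC425347), -0.22 to -0.079 (HNRNPK) and -2.95 to -1.25 (LOC100858742). It gave -2.70 to 2.61 points for the W share and -0.00308 to 0.0164 percentage points for H3K27ac on W, which was negative without interzone 1 or without phalange 2. The causes were not tested. LOC100859602 has no value at a minimum mean of 50. The Z levels were also read with a pseudocount of 10 and a minimum mean of 50, chosen after seeing the data, and kept their signs. In these 4 libraries limma did not call even the log2FC of -4.03 of the cartilage gene MATN1 (limma adjusted p = 0.246), so the count of 0 does not show that the W-linked genes were equal between the tissues.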

Other observations

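Of the 10 rows with another symbol that shared the pattern of the W-linked genes, UBAP2 had the most reads, with normalized counts of 0, 873 and 645 in interzone 1, 2 and 3 and 0.998, 592 and 936 in phalange 1, 2 and 3. ATP6AP1L had 0.894, 98.1 and 48.9 in interzone and 0, 89.1 and 73.7 in phalange. RefSeq for GRCg7b, another assembly, places both symbols on Z, but the rows were matched by symbol only. Their pattern is the opposite of that of the genes placed on Z as a set, which were highest in the libraries numbered 1. Where these rows lie in the build used for counting was not tested. SPIN1W had 0.894, 33.0 and 17.9 in interzone and 0, 34.6 and 36.4 in phalange, and was not matched to RefSeq. These 3 genes were chosen after their values were seen.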
